A study of Mus musculus with 74 samples.

Results

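KRAB zinc finger proteins (KRAB-ZFPs) are DNA-binding repressors, and the peaks described here are those that fell in the most repeated sequence of the mouse genome. They were chosen from 53255 deposited ChIP-seq peaks by sequence alone. The 200 bp window of each peak was read from the mm9 genome, and the number of exact genomic copies on either strand was counted for 24-mers taken every 8 bp. A peak was a member when the median over its 24-mers reached 1000 copies, which held for 8818 peaks, or 16.6% of all. Of windows laid every 20 kb over mm9, 5.18% reached the same minimum. The members had a median of 7007 copies, with quartiles of 1333 and 8250. Just inside the minimum, 474 peaks had 1000 to 1099 copies, and just outside it 781 peaks had 900 to 999 copies, of which 358 were of Gm8898 and 263 of Gm14412.

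KRAB-ZFPs bind DNA through arrays of C2H2 zinc fingers and recruit the corepressor KAP1, which brings repressive chromatin to retrotransposons. L1 elements are non-LTR retrotransposons that encode their own reverse transcriptase. IAP elements are endogenous retroviruses bounded by long terminal repeats (LTRs), and B1 elements are short, non-coding SINEs. Repeats were named here from their known sequence and not from a repeat annotation.

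The series comprised 67 labelled KRAB-ZFPs with peaks, each overexpressed with an epitope tag from stably integrated vectors in pooled resistant clones and assayed in 1 sample. In F9 EC cells, a mouse embryonal carcinoma line, 18 carried an N-terminal 3XFLAG tag and 30 an HA tag, both aligned with Bowtie and called against input and a control ChIP. A further 10 with an HA tag in F9 EC cells were aligned with Bowtie2, with a different control ChIP for peak calling, and 9 were HA-tagged in B6 ES cells and called against input alone. Cells were crosslinked in formaldehyde. There is thus no replicate error on any single KRAB-ZFP, and protein, cell line, tag and peak caller settings change together. Peaks were deposited down to a fold enrichment of 1.78 in ES cells and of 10 in F9 cells. Of the deposited peaks, 28.4% in ES cells passed an enrichment of 20 with p under 1e-10, against 79.4% of FLAG, 46.0% of HA and 86.2% of Bowtie2 peaks in F9 cells. The depth of the libraries is unknown here. The tags in peaks summed to between 1681 and 540220 per KRAB-ZFP. One name with 244 peaks, including 1 member, matched no label and was left out of every test and of the comparisons between setups. Its peaks stayed in the counts and shares over all members and all other peaks.

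The members fell into few sequences. Linking windows that shared at least 40 distinct 24-mers gave 10 families of 20 members or more, which held 7910 members. Of the remaining members, 737 were short tandem repeats and 171 were neither. The 24-mer present in the most members of 7 families is shown because it fixes the position and direction used for the distances below. It is the most widely shared stretch and not a measured binding site. Each is written 5′ to 3′ in lower case with no part marked.
Family 1, L1 coding region: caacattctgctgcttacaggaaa
Family 2, IAP LTR: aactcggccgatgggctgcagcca
Family 3, beside the IAP LTR: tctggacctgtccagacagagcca
Family 4, L1 5′ monomer: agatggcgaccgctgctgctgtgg
Family 5, B1 element: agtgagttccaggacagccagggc
Family 6, L1 5′ monomer: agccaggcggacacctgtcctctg
Family 8, beside the IAP LTR: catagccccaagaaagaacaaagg

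Whole windows are given for 1 member in each of families 1 and 4, with the 24 bases nearest to the shared 24-mer in capitals. The first is a Gm14406 peak at chr10:37656944-37657143 of mm9 (plus strand, intergenic), with a fold enrichment of 53.06, 150 tags and a median of 8403 copies. The second is a Gm14412 peak at chr1:131333371-131333570 (minus strand, in an intron of Thsd7b), with a fold enrichment of 61.1 and 1878 copies. Its capitals differ from the shared 24-mer by T22A, counted from 1 at the 5′ end. Both windows were chosen for a high peak score and are not typical. The median fold enrichment of the Gm14406 members of family 1 was 26.25. In family 4 only 8 of 172 members were of Gm14412, with a median of 25.68.
Gm14406, L1: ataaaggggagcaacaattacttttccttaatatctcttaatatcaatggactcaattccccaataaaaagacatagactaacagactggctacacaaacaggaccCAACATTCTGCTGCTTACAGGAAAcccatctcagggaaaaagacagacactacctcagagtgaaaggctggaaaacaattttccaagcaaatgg
Gm14412, L1 5′ monomer: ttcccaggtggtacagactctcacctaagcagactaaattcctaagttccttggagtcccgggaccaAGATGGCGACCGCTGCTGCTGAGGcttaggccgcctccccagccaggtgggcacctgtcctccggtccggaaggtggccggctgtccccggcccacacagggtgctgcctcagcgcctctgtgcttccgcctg

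Members were concentrated in few KRAB-ZFPs. Gm14406 had 4545 members among its 5685 peaks (79.9%, 95% Wilson interval 78.89 to 80.97), which was 51.5% of all members. Gm21082 had 1645 of 2211 (74.4%, 72.5 to 76.2), Gm14419 had 1037 of 3906 (26.5%, 25.19 to 27.96) and Gm14412 had 734 of 2787 (26.3%, 24.73 to 28.004). Together these 4 held 90.3% of the members. Smaller sets were found for Gm14401 with 271 members (17.6% of its peaks), Gm13225 with 154 (4.31%), Gm8898 with 72 (4.75%), Zfp810 with 55 (22.6%), Gm14295 with 38 (14.8%) and Gm13150 with 33 (33.7%). Another 8 KRAB-ZFPs had between 14 and 28 members, 15 had between 1 and 9, and 34 had none. The intervals cover counting error only, and peaks of 1 protein in copies of 1 repeat are not independent.

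**Figure D1:**
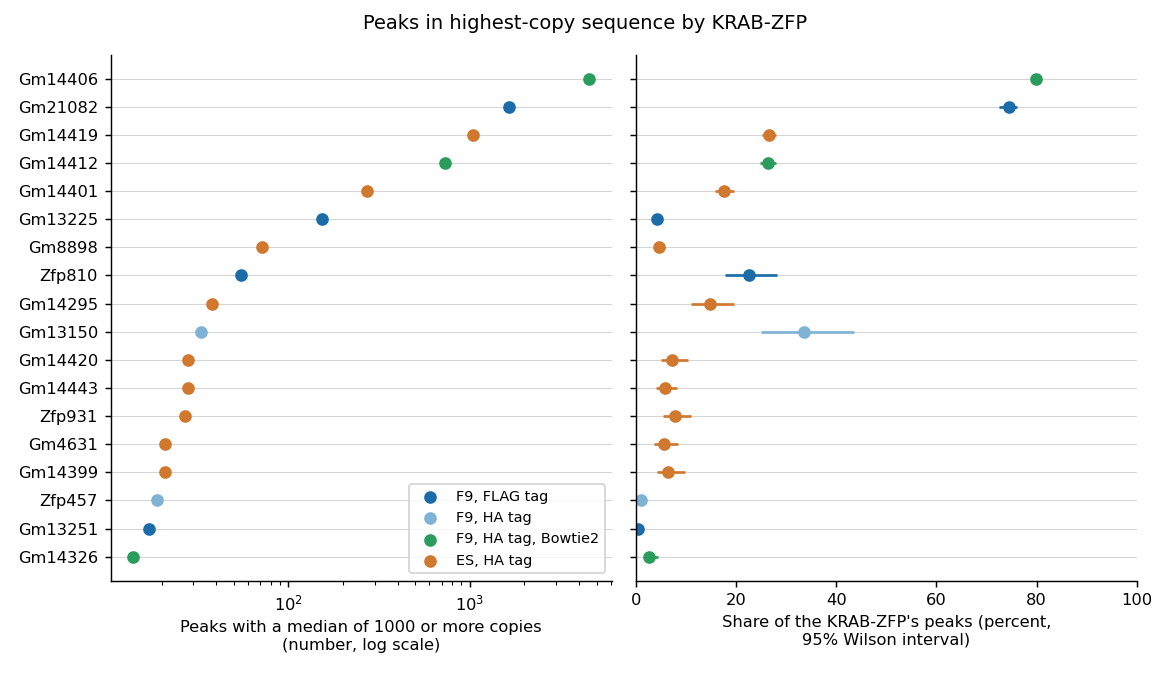
Number of members (left, log scale) and their share of the KRAB-ZFP's peaks with the 95% Wilson interval (right) for the 18 labelled KRAB-ZFPs with 10 or more members, coloured by setup. Gm14406 (79.9%) and Gm21082 (74.4%) lie apart from the other 16, of which Gm13150 is the highest at 33.7%.

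Most members held no unique sequence of read length among those examined. By the methods of the study, most F9 samples were read as 50 bases and mapped without the first 3. Copies were therefore counted for 47-mers taken every 8 bp over the window. In 6489 members (73.6%) none of these 47-mers was unique in mm9, against 9.29% of the other peaks. Members were chosen for many copies of the 24-mers in the same windows, so this difference was largely fixed by that choice. The median number of 47-mer copies was 1105. The 47-mers in between were not looked up, so these shares can be too high. The share was 91.2% for Gm21082, 36.1% for Gm14412, 23.6% for Zfp810 and 6.49% for Gm13225. It was 74.4% for Gm14406 and 83.5% for Gm14419, but the former was sequenced in read pairs and the latter in longer reads, so that the 47-mer overstates the ambiguity there. A read with several equally good positions was put at 1 of them at random, so a peak in such a window shows the repeat and not which copy was bound.

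Gm14406 peaks gathered at 1 position of L1. Of the 4562 windows of family 1, 4544 were Gm14406 peaks, and 3909 of those had the shared 24-mer within 1 kb of the summit. The summits lay at a median of 2.5 bp downstream of its centre, with quartiles of -4.5 and 8.5 bp, and 87.5% fell within 20 bp of the median. The windows had 39.5% GC, a mean of 0.150 CpG per 200 bp and a median of 7976 copies. Sequence with at least 100 copies ran from 1760 bp upstream of this position to at least 4000 bp downstream, the limit examined. The position lay near the start of the second open reading frame of L1, which encodes the endonuclease and reverse transcriptase.

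More than 1 in every 2 copies of this site carried a peak. On the assembled chromosomes of mm9 the exact 24-mer occurred 7026 times, and 4086 copies (58.2%, 57.0 to 59.3) were inside a Gm14406 peak, members or not. No other KRAB-ZFP had 10 or more members in the family. The share was 58.7% (57.51 to 59.96) on the autosomes and 53.9% (50.4 to 57.4) on chromosome X, and ranged over the autosomes from 50.9% on chromosome 6 to 63.1% on chromosome 13. On chromosome Y 10 of 24 copies were in a peak. Members and other Gm14406 peaks overlapped in height, and both were called with a minimum enrichment of 20. Their median scores were 244 in members and 301 in other peaks. The tags per Gm14406 member ran from 22 to 177, with quartiles of 35 and 49 around a median of 41, and its other peaks from 23 to 313, with quartiles of 38 and 64.2 around a median of 48. The fold enrichment of the members ran from 20 to 87.48 with a median of 26.25, and of the other peaks from 20.07 to 132.2 with a median of 27.2, so both sets overlapped over most of their range.

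Copies of the site that differed from it by 1 base had a peak less often at most positions. The shares are descriptive, since copies with a given base differ elsewhere too and belong to different L1 lineages. The 24-mer was itself chosen as the one in the most members of the family, nearly all of them Gm14406 peaks. A higher share in exact copies than in changed ones was thus partly fixed by that choice. By far the most numerous variant was C8T with 5907 copies, of which 419 (7.09%, 6.47 to 7.78) were in a Gm14406 peak, against 58.2% of exact copies. The low share was not found for other bases at this position. C8G had a peak in 17 of 28 copies (60.7%, 42.4 to 76.4) and C8A in 15 of 32 (46.9%, 30.9 to 63.6). Of 64 copies with C18T none was in a peak, which allows a share of up to 5.66%, and of 68 copies with G21A 1 was. The shares were nearest to that of exact copies at 2 positions: 51 of 84 copies changed at position 15 (60.7%, 50.02 to 70.47) and 43 of 96 changed at position 20 (44.8%, 35.2 to 54.7) were in a peak. At position 15, T15C had a peak in 27 of 38 copies and T15A in 18 of 38. At the last 4 positions of the site, 21 to 24, the share was between 2.22% and 8.70%.

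**Figure D2:**
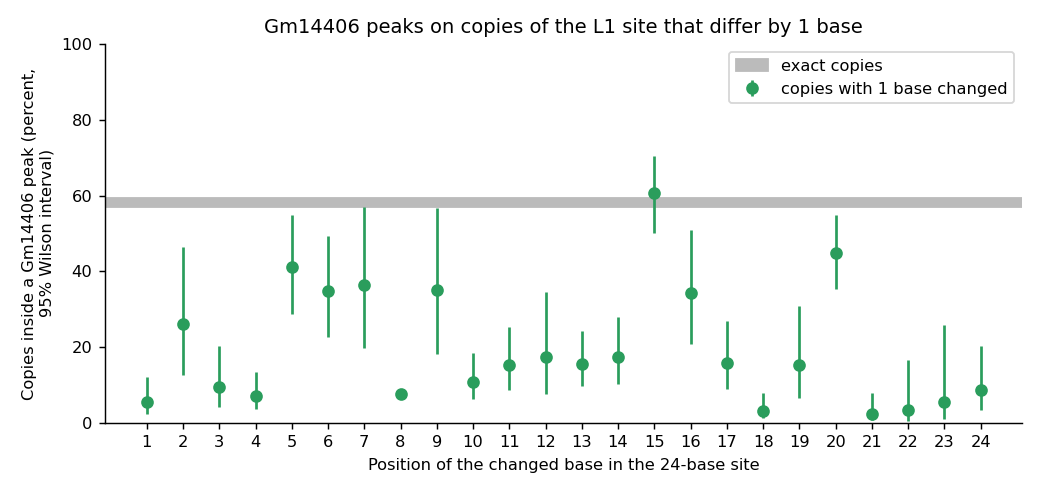
Percent of copies inside a Gm14406 peak for copies of the L1 site with 1 changed base, by the position of that base from 1 at the 5′ end (points, 95% Wilson interval), and for exact copies (grey band, 57.0 to 59.3%). Positions 15 (60.7%) and 20 (44.8%) lie nearest to the band, and positions 18, 21 and 22 lie below 5%. Of the 5967 copies changed at position 8, 5907 are C8T.

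The same counts could be made for bases outside the 24-mer in exact copies. A T directly after the site (position 25) had a peak in 6 of 57 copies (10.5%, 4.91 to 21.1) against 59.0% with the common base, and an A directly before it in 7 of 50 against 58.9%. Farther out, a C at position -49 was found in 781 copies with a peak in 25.7%, against 62.8% with the common base. Of the Gm14406 members in the family, 3908 held the exact 24-mer within the window, 570 held it with 1 substitution, of which 348 held C8T, and 66 held neither. Their median fold enrichments were 26.25 for exact sites and 23.3 for C8T sites. Of the 1140 Gm14406 peaks below the minimum, 178 (15.6%) held the exact 24-mer, in windows with a median of 149.5 copies, and 143 held it with 1 base changed.

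The C8T copies marked another set of L1 elements. In family 4, whose windows are the tandem monomers that form the 5′ promoter of young mouse L1 elements, 169 of 172 members lay within 8 kb of a C8T copy, all upstream of it, at a median of -2023.5 bp. Only 8 of the 172 lay that close to an exact copy. Copies of the family 4 24-mer followed each other at 212 bp in 3590 of 3942 neighbouring pairs, and those of family 6 at 214 bp in 863 of 968. Family 4 held 150 peaks of Gm14419, 9 of Gm14295 and 8 of Gm14412. Its Gm14419 summits were spread, with quartiles of -41.5 and 60.25 bp and 27 of 150 within 20 bp of the median, and their median fold enrichment was 8.385 with 16 tags. Only 2.10% of the 5914 copies were in a Gm14419 peak.

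Gm14412 had members on a related monomer. Its peaks were called in F9 cells at an enrichment over 20, and those of Gm14419 in ES cells with no such minimum, so their heights are not compared. Family 6 consisted of 126 windows, of which 124 were of Gm14412, with a median fold enrichment of 50.5 and a median of 141 tags. Summits had a median distance of -40.5 bp to the shared 24-mer, with quartiles of -52.5 and -26.5 bp, and 74.6% fell within 20 bp of the median. Of 2517 copies of the 24-mer, 754 (29.96%, 28.2 to 31.8) were in a Gm14412 peak. Another 620 of the 2053 Gm14412 peaks outside the members held the same 24-mer. Members of family 6 lay within 8 kb of a C8T copy in 12 of 126 cases and of an exact copy of the L1 site in 4. The name of this family as an L1 monomer thus rests on its sequence and not on these distances.

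Several KRAB-ZFPs had members on or beside the IAP LTR, and their summits differed in distance from the LTR site. Family 2 held 1557 peaks of Gm21082, 33 of Gm13150 and 879 of Gm14419. Gm21082 summits had a median distance of -16.5 bp to the shared 24-mer (quartiles -24.5 and -10.5) and those of Gm13150 one of -28.0 bp. The 688 of 879 Gm14419 summits with the 24-mer within 1 kb lay at a median of 279.5 bp (quartiles 268.5 and 295.5), and did not overlap those of Gm21082 between the 5th and 95th percentiles (-43.5 to 4.5 bp against 249.85 to 326.15 bp). The median fold enrichment was 33.9 for Gm21082, 27.6 for Gm13150 and 38.6 for Gm14419, in different setups. When at least 80 shared 24-mers were required, the next families after the largest had 1594 and 875 members. Whether the Gm14419 summits lay inside the LTR or past its end was not determined.

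**Figure D3:**
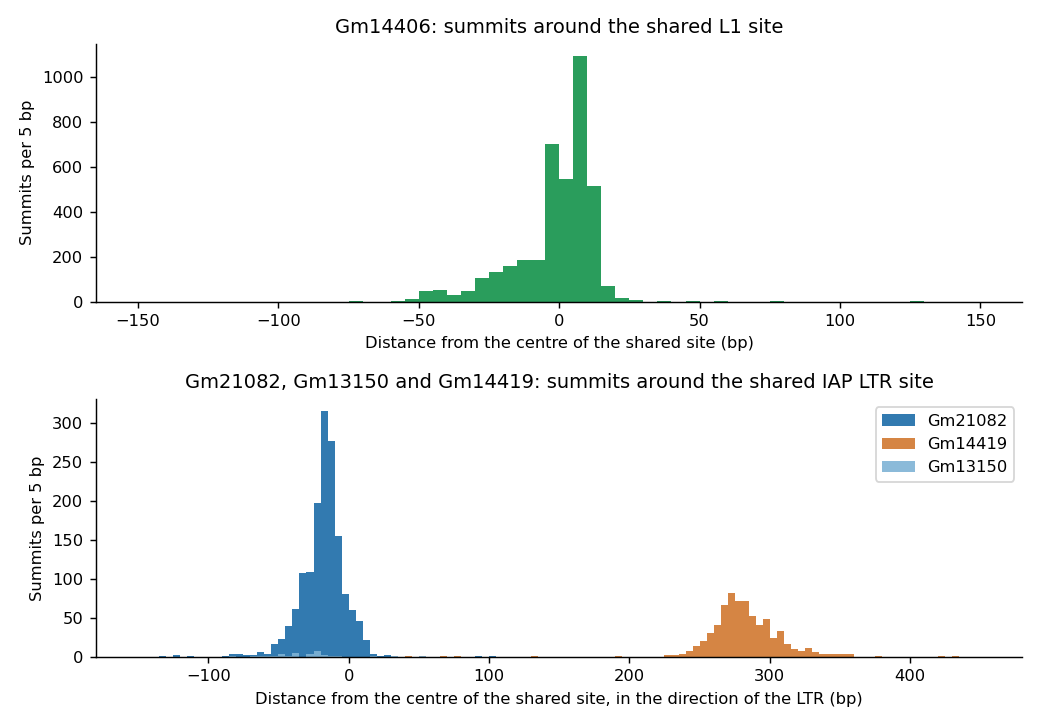
Number of summits per 5 bp by distance from the centre of the shared 24-mer, for Gm14406 in L1 (top) and for Gm21082, Gm13150 and Gm14419 on or beside the IAP LTR (bottom). Gm14406 summits gather at a median of 2.5 bp, Gm21082 summits at -16.5 bp and Gm14419 summits at 279.5 bp.

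The LTR sites of Gm21082 and Gm13150 were rich in CpG and held a known transcription factor motif. Family 2 windows had 51.2% GC and a mean of 11.96 CpG per window, against 0.150 in the L1 family. The palindrome TGACGTCA, the cAMP response element bound by CREB and ATF proteins, was found in 99.4% of the 1557 Gm21082 windows and in 33 of 33 Gm13150 windows, against 0.109% of windows laid over the genome, searched on both strands, which are the same for a palindrome. It was found in 4 of the 879 Gm14419 windows, which lie downstream, and in 44.5% of the 566 Gm21082 peaks that were not members. The motif is a part of the LTR, so its share describes the repeat, and it is not shown that either protein reads it.

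About as many LTR copies carried a Gm21082 peak as did not. The 24-mer occurred 3386 times on the assembled chromosomes, and 1748 copies (51.6%, 49.9 to 53.3) were in a Gm21082 peak and 36 (1.06%) in a Gm13150 peak. Of 1204 copies changed at position 5, 1 was in a Gm21082 peak (0.0831%, 0.0147 to 0.469), and it carried C5T. These copies differ elsewhere too, and the exact form was chosen as the 24-mer in the most members. Gm14419, assayed in ES cells, had a summit 180 to 380 bp downstream at 725 of the 1748 copies with a Gm21082 summit (41.5%, 39.2 to 43.8) and at 333 of the 1638 without (20.3%, 18.5 to 22.3). Gm13150 had a summit at 31 copies with a Gm21082 summit and at 5 without. Reads with several equally good positions were placed at random, so these counts are of called summits. They do not show that 1 copy was bound by both proteins. The LTR copies were also not checked for the sequence that follows them. Of the Gm21082 members, 73.1% had another Gm21082 peak within 10 kb, against 34.3% of its other peaks.

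Gm14401 and Gm8898 members lay farther from the LTR site. Distances follow the direction of the LTR 24-mer as printed. Family 3 held 252 Gm14401 peaks, and 166 of its 253 windows lay within 8 kb of an LTR 24-mer, at a median of -1075.5 bp, and 159 of these were upstream of it. The summits were at a median of -8.5 bp from the family's own 24-mer, with 43.95% within 20 bp of the median, a median fold enrichment of 10.8 and 14 tags. Of 1708 copies, 423 (24.8%, 22.8 to 26.9) were in a Gm14401 peak. Family 8 held 45 Gm8898 peaks and 9 of Gm14443, with 45 of 55 windows at a median of 1671.5 bp downstream of an LTR 24-mer. This family had a median of 1007 copies, just above the minimum. Below it, 938 of the 1445 other Gm8898 peaks held the same 24-mer, and 1076 of its 1766 copies (60.9%, 58.6 to 63.2) were in a Gm8898 peak. Gm8898 had a summit 1500 to 1900 bp downstream at 602 of the 1058 LTR copies with a Gm14419 summit (56.9%) and at 30 of the 2328 without (1.29%). Gm8898 and Gm14419 were both assayed in ES cells, and these shares are descriptions. The family 8 24-mer had 1766 copies against 3386 of the LTR 24-mer, so not every LTR copy has it downstream. Whether the LTR copies without a Gm14419 summit held it was not tested.

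**Figure D4:**
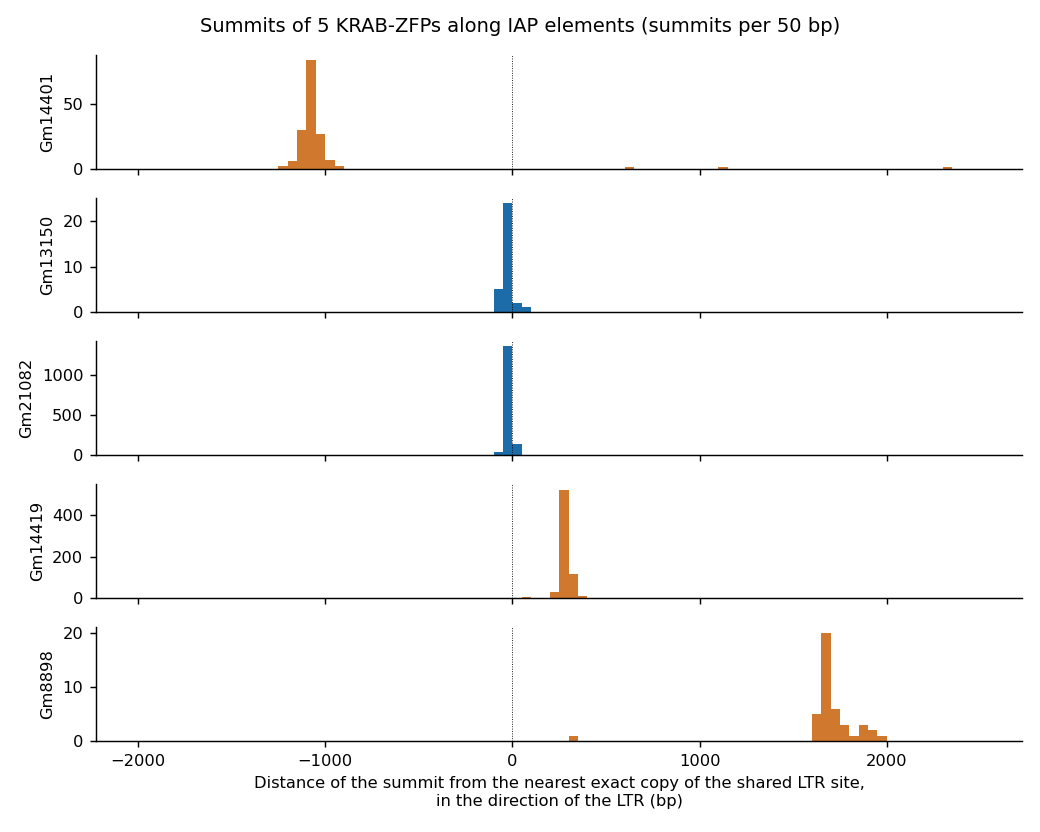
Number of member summits per 50 bp by distance from the nearest exact LTR 24-mer, for Gm14401, Gm13150, Gm21082, Gm14419 and Gm8898 (blue, F9 cells; orange, ES cells; each panel has its own scale). Each KRAB-ZFP gathers at 1 distance, from a median of -1075.5 bp in the family of Gm14401 to 1671.5 bp in that of Gm8898.

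Short tandem repeats made up 767 members (8.70%), defined after the data were seen as windows in which 90% of the bases over 100 bp equalled the base 1 to 12 positions further on. They split by the length of the repeated unit. Of 588 such Gm14412 members 588 had a unit of 6 bases, agaggc, and a median of 28859 copies. Of the 55 Zfp810 members 55 had a unit of 8 bases, agagaggc, with a median of 4468 copies. Gm21082 had 61 members with the 8-base unit and 12 with the 6-base unit. The units differ by 1 added ag. Median fold enrichments were 29.1 for Gm14412, 26.02 for Gm21082 and 30.15 for Zfp810. Zfp457 had 13 tandem members, of which 8 were ac repeats, and Zfp738 had 6, of which 5 had the unit agagc.

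Gm13225 had a scattered set. Of its 154 members, 121 were in family 5, the B1 element, and 20 in family 7, of which 15 of 57 windows lay within 8 kb of the Gm14406 site of L1, at a median of 4275.5 bp and 13 of them downstream (26.3%, against 28.1% of genome windows that reached the minimum). The B1 24-mer was the most numerous of the 10 shared 24-mers, with 54727 exact copies on the assembled chromosomes, and 182 of these (0.333%, 0.288 to 0.384) were in a Gm13225 peak. The summits were at a median of -29.5 bp with 35.8% within 20 bp of it. Members and other peaks of Gm13225 overlapped in height, with tags of 66 to 329 against 61 to 463 and fold enrichments of 10.01 to 19.92 against 10 to 39.47. The number of Gm13225 members rested on the definition: 1148 of its peaks had a mean of 1000 copies or more over the window, as opposed to 154 with such a median. In this family 56.7% of windows were intronic, against 20.2% in family 1.

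Windows of members were also compared by overlap, which does not count summits farther apart on the same copy. The 8818 members formed 8719 loci, where windows overlapped by at least 25%, of which 83 held members of 2 KRAB-ZFPs and 8 of 3. The most frequent pairs were Gm21082 with Zfp810 at 30 loci, beside 55 Zfp810 members, Gm13150 with Gm21082 at 23, beside 33 Gm13150 members, and Gm14412 with Gm21082 at 15. Of the 8 loci with 3 KRAB-ZFPs, 3 held Gm14412, Gm21082 and Zfp810 on tandem repeats. The locus at chr11:110445330-110445785 (intergenic, mm9) had fold enrichments from 27.64 to 34.02. A locus at chr8:50076286-50076556 held Gm13150, Gm14419 and Gm21082 on an LTR, with fold enrichments from 7.66 to 33.87. A locus at chrX:166527242-166527505 with the unit aaccct, the telomere repeat, held Gm14401, Gm14419 and Gm8898 with fold enrichments of only 2.74 to 2.94.

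The intergenic and intronic shares of the members were near those of high-copy sequence in general. By the summit, 76.8% were intergenic, 22.9% intronic and 0.0680% in a coding exon, against 55.3%, 36.5% and 3.09% of the other peaks. Genome windows that reached the minimum were 76.5% intergenic and 23.5% intronic. Within 1 kb of an annotated transcript start lay 0.964% of the members, 1.66% of those not of Gm14406 and 13.2% of the other peaks, against 0.543% of genome windows that reached the minimum and 4.09% of all genome windows. Where members of family 1 were inside protein-coding genes, 33.4% (30.1 to 37.0) had the L1 coding strand on the strand of the gene, against 32.6% of all copies. For family 2 the shares were 25.6% and 27.6%.

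In 18 KRAB-ZFPs with at least 10 members and 10 other peaks the sets were compared within each protein. The tests were two-sided exact sign-flip permutation tests over KRAB-ZFPs, adjusted over 10 measures by Benjamini-Hochberg. The share within 1 kb of an annotated transcript start was 2.28% in members and 8.65% in other peaks on average, a difference of -6.37 percentage points (SD 9.35, n = 18, exact permutation p = 0.0046, adjusted p = 0.023). It was lower in 15 of 18, most so in Zfp810, with 3.64% against 37.8%, and higher in Gm14326, Gm14295 and Gm13251. Among genome windows, too, the share was lower in those that reached the minimum. When only peaks past an enrichment of 20 and p of 1e-10 were used, 7 KRAB-ZFPs could be compared, and neither this difference (-9.34 percentage points) nor that in called width (-0.0526) passed, both with an adjusted exact permutation p of 0.208. Members were also called over a narrower region. The median called width was lower in 14 of 18, on average 0.923 times that of the other peaks (difference of log10 -0.0347, SD 0.0397, n = 18, exact permutation p = 0.00193, adjusted p = 0.0193). Against peaks with a median of 1 copy the width difference was -0.0185, with an adjusted exact permutation p of 0.57, and with a minimum of 500 copies it was -0.0392, with one of 0.121.

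**Figure D5:**
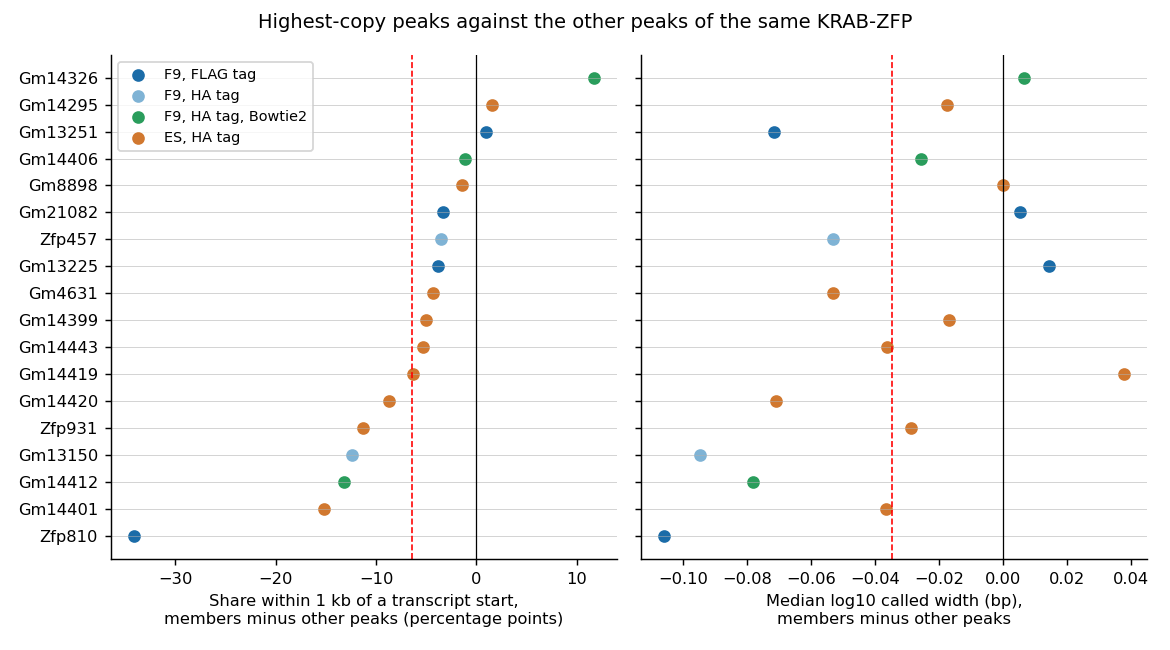
Difference between members and other peaks of the same KRAB-ZFP in the share within 1 kb of a transcript start (left, percentage points) and in the median log10 called width in bp (right), 1 point for each of 18 KRAB-ZFPs, coloured by setup, with the mean as a dashed line. The share was lower in 15 of 18 KRAB-ZFPs and the width in 14 of 18.

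The other 8 measures did not pass the adjusted threshold. The intron share differed by -7.03 percentage points (SD 11.1, lower in 13 of 18, adjusted exact permutation p = 0.0526). Tags per peak were 0.898 times those of other peaks (lower in 13, higher in 2, adjusted exact permutation p = 0.114), and without Gm14419 the adjusted p was 0.00221. The peak score was 0.943 times that of other peaks (adjusted exact permutation p = 0.597), and 0.011 without Gm14419. Fold enrichment was 1.02 times that of other peaks (SD of the log10 difference 0.0744, higher in 8, lower in 9, adjusted exact permutation p = 0.863). GC content was 1.12 percentage points higher (SD 2.82, adjusted exact permutation p = 0.22), and CpG per window differed by -0.136 (SD 3.32, adjusted exact permutation p = 0.866). The share with another peak of the same KRAB-ZFP within 10 kb differed by 2.80 percentage points (SD 9.81, adjusted exact permutation p = 0.443), and without Gm21082 by 0.679. The share of loci also called in another KRAB-ZFP differed by -2.41 percentage points (SD 20.5, adjusted exact permutation p = 0.783).

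Whether the share of members differed between setups depended on the minimum and the scale, and at 1000 copies no difference in mean percent passed the threshold. The mean percent per KRAB-ZFP was 5.80 with a FLAG tag and 1.43 with an HA tag in F9 cells (18 and 30 KRAB-ZFPs, two-sided permutation test, adjusted p = 0.267). It was 4.52 over all F9 samples and 10.8 in ES cells (58 and 9 KRAB-ZFPs, permutation p = 0.145, adjusted p = 0.217). It was 3.07 for F9 samples aligned with Bowtie and 11.5 for those aligned with Bowtie2 (48 and 10 KRAB-ZFPs, permutation p = 0.0649, adjusted p = 0.195), and without Gm14406 the last difference was -0.802 in place of -8.41. All 9 ES samples had members, with a median of 7.31% and a range of 4.75 to 26.5%, whereas the median in F9 cells was 0. On the log10(percent + 1) scale the difference between F9 and ES cells was -0.763 (adjusted permutation p = 0.00036) and that between Bowtie and Bowtie2 -0.361 (0.0374). With a minimum of 500 copies these differences were -21.5 (adjusted permutation p = 0.0121) and -15.3 percentage points (0.0257). When only peaks past an enrichment of 20 and p of 1e-10 were counted, F9 minus ES was 0.196 percentage points (adjusted permutation p = 0.971).

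Of the protein-coding genes with a transcript start within 1 kb of a member summit, 35 in all, the 10 with the highest fold enrichment were ranked. The first was 1700008F21Rik, with a Gm14412 peak of 72.65-fold on the L1 monomer 680 bp from an annotated transcript start (chr8:131668684-131668883, mm9, intron). Gm17316, ranked next, and Gm17621, ranked last of the 10, had Gm14406 peaks of 49.57-fold and 32.08-fold in coding exons, both in the L1 family. Gm10991, Stx18, Gm17555 and Pld1 had Gm14419 peaks on or beside the IAP LTR, of 46.31, 45.47, 39.45 and 39.18-fold. Stx18 encodes a SNARE protein of the endoplasmic reticulum and Pld1 a phospholipase D. The peaks lay in introns, 144 bp and 59 bp from an annotated transcript start, which need not be the main start of the gene. B230312A22Rik, Car5b and Nnmt had Gm14412 peaks of 40.94, 40.76 and 32.48-fold on the 6-base tandem repeat. Car5b encodes a mitochondrial carbonic anhydrase and Nnmt nicotinamide N-methyltransferase.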

How the data were processed

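The deposited table gives peaks that the authors called per sample with MACS14 (version 1.4.2 per the labels' processing notes) after mapping reads to mm9 with Bowtie or Bowtie2, each set to 200 bp around its summit. Reads with several equally good positions were placed at 1 of them at random. The authors deposited the tags of each peak as raw counts, a score of minus 10 times the log10 of the p-value, the fold enrichment as a ratio over local background, and a false discovery rate in percent. Each KRAB-ZFP had 1 sample, and no control library was analysed here. Library depth is unknown, and intervals cover counting error only.

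Copies of 24-mers and 47-mers were counted in NCBIM37 (mm9) including unplaced contigs, with gencode vM1 genes, in Python 3.11.15 with numpy 2.4.6, numba 0.67.0, scipy 1.17.1 and pandas 2.3.3. Positions are 1-based. Families were connected components of windows that shared at least 40 distinct 24-mers. The KRAB-ZFPs named have at least 10 members, the families at least 20, the genes are the 10 of highest fold with a start within 1 kb, and loci those with at least 3 KRAB-ZFPs. Sign-flip tests enumerated every sign; group tests used 100000 resamples. Counting and tests were checked on simulated data. The members, families and lists were chosen with earlier results of these data known, and the tandem class and the base-by-base counts after values were seen. Alternatives are given in the closing section. The name without a label was left out of the tests, and the label without peaks had nothing to count. One window is not reported here.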

Additional observations from a re-analysis of the deposited data

Results flagged for a closer look

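Of 44 highest or lowest values in groups of 4 to 10 KRAB-ZFPs, 8 stood farther from the rest of their group than Dixon's 95% limit, a limit that chance passes in about 1 of 20 groups. Gm14406 had 79.9% of its peaks among the members, the highest of the 10 Bowtie2 samples. In the ES samples, Gm14419 had the highest difference between members and other peaks in log10 fold enrichment (0.267), tags (0.245) and score (0.381). Gm8898 had the highest difference in the share within 10 kb of another of its peaks, 3.83 percentage points. Among the 4 FLAG samples with enough members, Gm21082 had the lowest difference in GC content (-0.281 percentage points) and the highest in the share within 10 kb (38.9 percentage points), and Zfp810 the lowest in the share near a transcript start (-34.1 percentage points).

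The difference in GC content between members and other peaks differed between 9 F9 and 9 ES KRAB-ZFPs. It was 2.99 percentage points in F9 cells and -0.739 in ES cells, a gap of 3.72 (two-sided exact permutation p = 0.00255, adjusted over 10 measures 0.0255; higher in members in 7 of 9 F9 and 5 of 9 ES KRAB-ZFPs). The cell lines were used for different proteins, so line and protein cannot be told apart.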

How the results depend on the processing

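The minimum, the peak thresholds and single KRAB-ZFPs moved several comparisons between members and other peaks, and the cause was not tested. With a minimum of 500 copies the differences were -0.0392 (log10) in called width, which no longer passed, 2.07 percentage points in GC content and -8.82 in introns, which now passed, 0.50 in CpG per window and 6.85 percentage points in shared loci, which reversed. With a minimum of 2000 they were -0.118 in tags and -0.0946 in score (log10), which passed, and -0.0349 in fold enrichment and -0.509 percentage points within 10 kb, which reversed. With only peaks of p under 1e-10 and enrichment over 20, called width (-0.0526) and the share near a transcript start (-9.34) no longer passed, and fold enrichment (-0.0118) and shared loci (4.72) reversed. With at least 5 members and others, tags (-0.0603), GC content (1.78) and introns (-8.05) passed, and with at least 20 shared loci reversed (0.872). Against peaks of a median of 1 copy, called width (-0.0185) no longer passed, introns (-14.5) passed, and CpG (0.384) and shared loci (2.96) reversed.

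Leaving out each KRAB-ZFP in turn gave -0.481 to 0.307 CpG per window, which turned positive without Gm14412 or Zfp810, -0.00719 to 0.0137 in fold enrichment, negative without Gm14419, and -0.0492 to -0.0154 in score and -0.0641 to -0.0381 in tags, which passed without Gm14419. The intron difference ran from -8.25 to -5.88 and passed without Gm13225, Gm14412, Gm14419, Gm4631, Gm8898 or Zfp810. Called width (-0.0390 to -0.0305) and the share near a transcript start (-7.44 to -4.74) passed in every leave-out.

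Between setups, a minimum of 500 copies gave -21.5 percentage points for F9 minus ES and -15.3 for Bowtie minus Bowtie2, both of which passed, as did -0.763 and -0.361 on the log10(percent + 1) scale. With only peaks of p under 1e-10 and enrichment over 20, F9 minus ES reversed to 0.196. The number of labelled members was 6009 to 12981 over 5 alternatives, and 35 of 90 counts of named KRAB-ZFPs moved by over 1.5 times. Linking at 20 or 80 shared 24-mers gave 7 or 8 families. No paired analysis was possible because no replicate numbers are shared between groups, each KRAB-ZFP having 1 sample. The pairing in the tests above is of 2 sets of peaks within a KRAB-ZFP. Depth and random placement of reads limit any statement on a single copy.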

Other observations

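Some tandem repeats of few bases lay among the peaks below the minimum. With the same definition, 660 of the 2787 Gm14412 peaks, 96 of the 2211 Gm21082 peaks and 73 of the 243 Zfp810 peaks were tandem repeats, of which 588, 73 and 55 were members. Zfp661 had 35 tandem peaks and Gm14420 had 28, of which 0 and 1 were members.

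The 171 members outside every family and outside tandem repeats were spread over the ES samples in particular: 17 were of Gm8898, 16 of Gm14420, 15 each of Gm14399 and Gm4631, 14 of Gm14295 and 13 of Zfp931. Of the 171, 32 (18.7%) lay within 8 kb of an exact copy of the L1 site, against 28.1% of the 6631 genome windows that reached the minimum. Within 8 kb of an LTR 24-mer lay 16 (9.36%), against 4.66% of those genome windows.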
